A study of Mus musculus with 25 samples.

Results

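CD11c+ macrophages of mouse white adipose tissue were set against blood monocytes, gene by gene, in 13 of the 25 RNA-seq libraries of the series. The 4 libraries of the adipose population, titled pop4, came from cells sorted as lacking Tim4 and carrying CD11c and MHC class II, and the 9 monocyte libraries from blood cells sorted on CD115 and Ly6C. Libraries were taken by these sort labels. Another 12 libraries of Tim4+ or CD11c- adipose macrophages (pop1, pop2 and pop3) were used to show where pop4 also stood apart within adipose tissue. All libraries were made from 200 sorted cells of C57BL6 mice, and the labels name no genetic change. Of the pop4 libraries, 2 came from mice on a high fat diet (HFD, 45% fat) and 2 from mice on a control diet (CD, 10% fat). Of the monocyte libraries, 3 were HFD and 6 CD, 3 of these titled CD and 3 CD-CD like the pop4 controls, and the labels do not say how the titles differ. Adipose tissue was shaken for 20 min in 4 mg/mL collagenase II with 2 mmol/L flavopiridol, an inhibitor of transcription, whereas blood was drawn into EDTA and lysed. Tissue, gate and handling therefore cannot be told apart in this comparison. The labels give neither the age of the mice nor the animal behind each library, so p-values measure the spread between libraries, which may be partly technical.

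Monocytes circulate in blood for a short time and enter tissues through adhesion molecules and chemokine receptors, above all CCR2. Inside a tissue some of them become macrophages, cells that take up debris, lipid and dying cells, present antigen and secrete growth factors, proteases and chemokines. In white adipose tissue, macrophages that carry the integrin CD11c are best known from obesity, where they gather around dying fat cells and take up their lipid. CD115 is the receptor of the growth factor CSF1 on which both cell types depend, and Ly6C marks the classical monocytes that are recruited into inflamed tissue.

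Levels are given as CPM, the deposited read counts scaled by library size, and are compared between groups, not between genes. Values of pop4 are given for all libraries in the order HFD 2, HFD 3, CD 7 and CD 8, and values of monocytes as the lowest, the median and the highest of 9 libraries. Log2 differences are pop4 minus monocytes with diet as covariate, given with their standard error (SE) and a p adjusted over 11769 tested genes. Total counts per library were 7061897 to 8239310 in pop4 and 6502394 to 9336395 in monocytes, so that 3 reads, taken as the limit of detection, corresponded to 0.369 to 0.403 and 0.349 to 0.516 CPM. Libraries of 1 population correlated across genes at r = 0.845 to 0.889 in pop4 and 0.862 to 0.908 in monocytes. Counts in olfactory and vomeronasal receptor genes, which serve as a measure of background reads, summed to 79.5 to 190 CPM in pop4 and 93.0 to 255 CPM in monocytes, against 194 to 685 CPM in the other adipose libraries. In these bulk libraries, fewer cells of a type and less RNA per cell cannot be told apart.

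The marker genes matched the sort labels. Itgax, which encodes CD11c, was read at 180.1, 191, 186 and 182 CPM in pop4, against 0.172, 7.52 and 23.3 CPM in monocytes (log2 difference 4.36, SE 0.68, adjusted p = 3.52e-04). Ly6c2, which encodes the Ly6C antigen of the monocyte gate, was at 0.615, 12.5, 0.391 and 1.34 CPM in pop4, against 434, 485 and 673 CPM in monocytes (log2 difference -7.33, SE 0.70, adjusted p = 6.06e-06). The groups did not overlap in either gene, and the HFD 3 library held the most Ly6c2 of the pop4 libraries. Without it the log2 difference of Ly6c2 was -9.30, and without monocyte library HFD 1 that of Itgax was 5.55. In HFD libraries alone Itgax did not pass the test (log2 difference 4.46, adjusted p = 0.124). Mmp12, the macrophage elastase, was at 850.2, 1016, 393 and 1331 CPM in pop4, against 0.121, 0.872 and 24.7 CPM in monocytes (log2 difference 8.16, SE 0.98, adjusted p = 4.29e-05), or 9.04 on the log2 scale without CD 7 and 8.79 without CD 8. Ccl17, a chemokine that attracts T cells through CCR4, was at 49.7, 69.6, 129 and 80.9 CPM in pop4 and had 3 reads in all monocyte libraries together, which puts the ratio at 1929-fold (95% interval 659 to 9359). Genes of the MHC class II gate were higher as well. H2-Eb1, a class II chain, was at 855, 815, 830.4 and 871 CPM in pop4, against 13.2, 37.2 and 56.1 CPM in monocytes (log2 difference 4.56, SE 0.30, adjusted p = 1.87e-07). Csf1r, which encodes CD115 of the monocyte gate, was present in both and lower in pop4, at 314, 298, 279.7 and 277 CPM against 384, 456 and 507 CPM in monocytes (log2 difference -0.66, SE 0.08, adjusted p = 5.15e-05). Timd4, which encodes Tim4, was at 0, 0.123, 0.13 and 10.6 CPM in pop4, against 0, 0.126 and 0.747 CPM in monocytes, and was too low to be tested. The gates set Itgax, Ly6c2, H2-Eb1, Csf1r and Timd4, so their differences check the labels and are not findings.

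**Figure D1:**
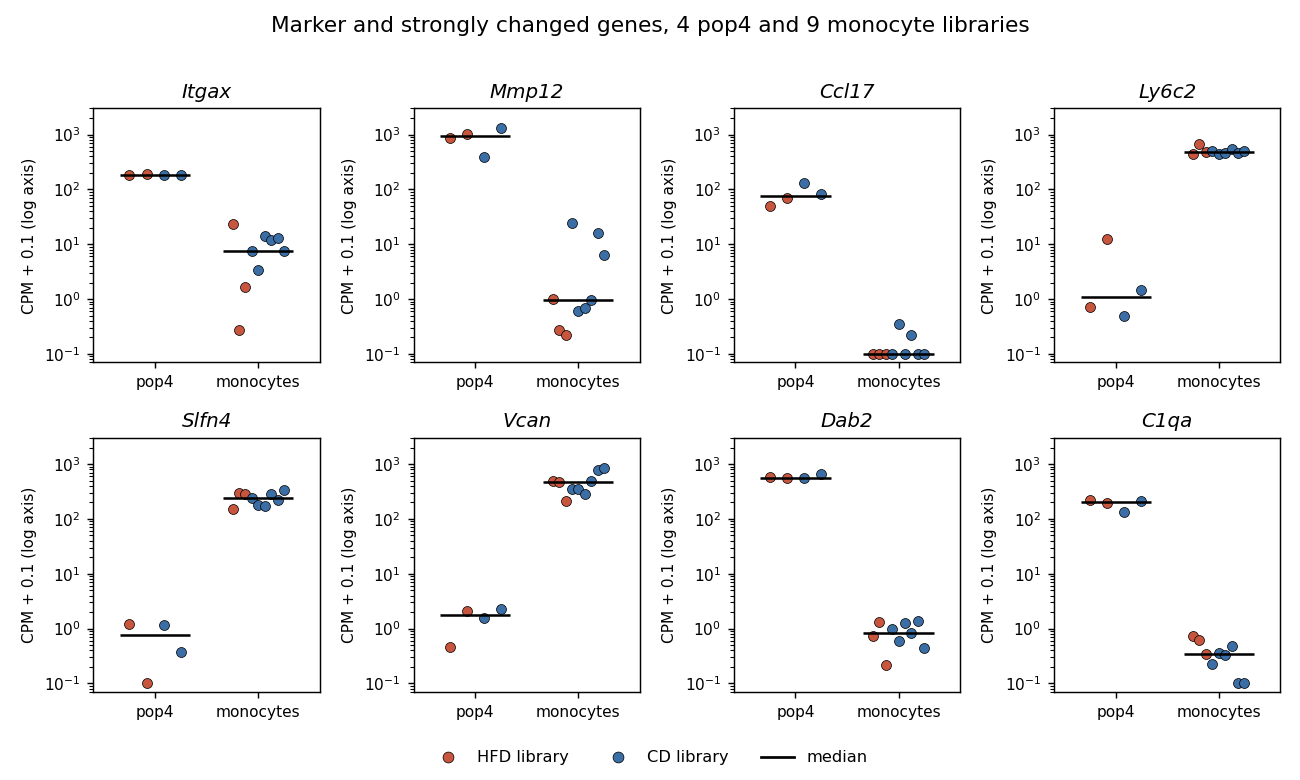
CPM plus 0.1 (log axis) of 8 genes in the 4 pop4 libraries, on the left of each panel, and the 9 monocyte libraries, on the right. Each point is 1 library, coloured by diet, and the line is the median. In all 8 genes the populations did not overlap, and Ly6c2 reached 12.5 CPM in 1 pop4 library.

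Pop4 was the adipose population whose mean profile lay closest to that of monocytes. Across 16961 genes, the mean log2 CPM of pop4 correlated with that of monocytes at r = 0.914, against 0.884 for pop3, 0.850 for pop2 and 0.853 for pop1. Single pop4 libraries reached r = 0.871 to 0.898 with the monocyte mean and single libraries of the other adipose populations 0.746 to 0.855, whereas each monocyte library reached 0.952 to 0.966 with the mean of the others. These are descriptions across genes, which are not independent, and all of them use the same monocyte libraries. Library size and background reads differed as well. The other adipose libraries had 3752835 to 8524867 counts and, as given above, more background reads than pop4. Pop3 HFD 3, with 194 CPM of background reads and 8524867 counts, reached r = 0.855. Pop4 CD 7, with 190 CPM and 7061897 counts, reached 0.871. The part of library size and background reads in these correlations was not tested.

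In CD11c+ adipose macrophages, genes of circulating monocytes, interferon-stimulated genes and microbial sensors were mostly lower than in monocytes, whereas cell cycle genes and genes of alternative activation were mostly higher. Interferon-stimulated genes were lower in 23 of 25 tested members and classical monocyte genes in 15 of 21, while cell cycle genes were higher in 25 of 26 and genes of alternative activation in 10 of 17. Of 11769 genes tested in all, 1123 (9.54%) were higher and 1367 (11.6%) lower in pop4 than in monocytes. In 922 genes (7.83%) every pop4 library lay above every monocyte library, and in 887 (7.54%) every one lay below. Among genes with a single genomic copy and a mean of at least 50 CPM, those with the widest gap between the groups include several that were nearly absent in 1 group and abundant in the other. Dab2, an adaptor for endocytosis, was read at 573, 551, 550.0 and 659.8 CPM in pop4, against 0.121, 0.747 and 1.26 CPM in monocytes (log2 difference 9.62, SE 0.29, adjusted p = 1.87e-10). Aldh1a2, which makes retinoic acid from retinal, was at 308, 269, 267 and 316 CPM in pop4, against 0, 0.126 and 0.587 CPM in monocytes (log2 difference 10.55, SE 0.40, adjusted p = 1.74e-09). Rgs1, a regulator of G protein signals from chemokine receptors, was at 329, 254, 162 and 360.2 CPM in pop4, against 0, 0.126 and 0.376 CPM in monocytes (log2 difference 11.01, SE 0.48, adjusted p = 5.82e-09). These 3 genes lay near or below the limit of detection in blood and between 162 and 660 CPM in pop4.

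Several other genes with wide gaps encode receptors and secreted factors. Il1rl1, the receptor of interleukin 33, was at 275, 255, 262 and 245 CPM in pop4, against 0.121, 0.501 and 1.12 CPM in monocytes (log2 difference 8.92, SE 0.37, adjusted p = 4.03e-09). Gfra2, a co-receptor of the neurturin family, was at 166, 165, 151 and 181 CPM in pop4, against 0, 0.241 and 0.506 CPM in monocytes (log2 difference 9.29, SE 0.55, adjusted p = 7.79e-08). Kitl, stem cell factor, was at 169, 200.4, 173 and 162 CPM in pop4, against 0, 0.253 and 0.641 CPM in monocytes (log2 difference 9.08, SE 0.53, adjusted p = 6.57e-08). Across these 3 genes the 4 pop4 libraries lay within 1.5-fold of each other. Hebp2, a heme-binding protein gene, and Pmp22, a membrane protein gene known from myelin, ranged over 86.3 to 139 CPM and 124 to 288 CPM in pop4, against 0 to 0.172 CPM and 0 to 1.002 CPM in monocytes. Klrb1a, a lectin-like receptor gene known from natural killer cells, was at 89.8, 124, 114 and 146 CPM in pop4, against 0, 0 and 0.465 CPM in monocytes (log2 difference 10.86, SE 0.76, adjusted p = 2.90e-07), and is uncertain because its sequence is close to that of Klrb1b. Monocyte library CD 3 was the single blood library with reads of Klrb1a, and without it the fitted log2 difference was 12.89, a value that depends on the prior count and is no bound. The remaining 3 genes with the widest gaps, C1qa, C1qb and Birc5, belong to groups described further on.

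Among the genes lower in pop4, the widest gaps lay in genes of classical monocytes, of granules and of red cells. Slfn4, a Schlafen gene of myeloid cells, was at 1.11, 0, 1.04 and 0.269 CPM in pop4, against 151, 242 and 339 CPM in monocytes (log2 difference -8.59, SE 0.54, adjusted p = 1.26e-07). Vcan, the versican proteoglycan of classical monocytes, was at 0.369, 1.97, 1.43 and 2.15 CPM in pop4, against 214, 476 and 859 CPM in monocytes (log2 difference -8.26, SE 0.55, adjusted p = 2.03e-07). Mmp8, a collagenase stored in neutrophil granules, was at 1.48, 0.123, 0.522 and 7.93 CPM in pop4, against 520.0, 714 and 933 CPM in monocytes (log2 difference -8.17, SE 0.65, adjusted p = 1.15e-06). Csf3r, the receptor of G-CSF, was at 0.369, 0, 0.913 and 0.94 CPM in pop4, against 85.1, 127 and 173 CPM in monocytes (log2 difference -7.90, SE 0.53, adjusted p = 2.04e-07). All of these lay under 8 CPM in every pop4 library, and without CD 8, the highest of pop4 in Mmp8, the log2 difference of Mmp8 was -9.93. Hbb-bs, Hbb-b1, Hbb-bt and Hbb-b2, the haemoglobin beta genes of red cells, also belong to the group. Hbb-bs was at 1.72, 1.6, 0.391 and 1.88 CPM in pop4, against 140.1, 371 and 436 CPM in monocytes (log2 difference -8.03, SE 0.45, adjusted p = 6.10e-08). The Hbb genes share long stretches of sequence and cannot be counted apart with certainty. The red cell list as a whole summed to 4.43 to 80.4 CPM in pop4, against 455 to 1571 CPM in monocytes. The blood libraries thus carried red cell RNA, and its part in other differences was not tested.

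The classical monocyte list, genes known from Ly6C+ blood monocytes, had 15 of 21 tested genes lower in pop4 and 0 higher, with a median log2 difference of -3.47 against -0.01 over all tested genes. Ly6i, a Ly6 family gene, was at 0.369, 0.123, 0.391 and 0 CPM in pop4, against 95.1, 128 and 181 CPM in monocytes (log2 difference -9.13, SE 0.48, adjusted p = 4.08e-08), and its reads could be split among near-identical Ly6 genes. Cd177, a surface protein of neutrophils that binds PECAM1, was at 1.72, 0, 0.261 and 0.269 CPM in pop4, against 135, 191 and 251 CPM in monocytes (log2 difference -8.45, SE 0.55, adjusted p = 1.65e-07), or -9.95 on the log2 scale without HFD 2. Trem3, an activating receptor of myeloid cells, was at 0.246, 0, 0.391 and 0.134 CPM in pop4, against 55.0, 126 and 189.9 CPM in monocytes (log2 difference -9.26, SE 0.61, adjusted p = 1.78e-07). Members of the list differed among themselves, however. Fn1, the fibronectin gene, was at 983, 1078, 1096 and 990.3 CPM in pop4, against 827, 885 and 1092 CPM in monocytes (log2 difference 0.18, SE 0.08, adjusted p = 0.152). Gda, a guanine deaminase gene, was at 575, 682, 852 and 724 CPM in pop4, against 511, 572 and 678 CPM in monocytes (log2 difference 0.23, SE 0.11, adjusted p = 0.138). The groups overlapped in both genes. Ccr2, chosen here after its values were seen because it guides monocytes into tissue, was at 1488, 1544, 1277 and 1769 CPM in pop4, against 1748, 2229.8 and 2396 CPM in monocytes (log2 difference -0.50, SE 0.10, adjusted p = 0.00215). It was lower by less than 1.5-fold and did not pass in CD libraries alone (adjusted p = 0.0713), in HFD libraries alone (adjusted p = 0.0523) or in the fit of all 25 libraries (adjusted p = 0.548). Within pop4 the HFD 3 library stood highest in a few members, with 71.3 CPM of Plac8, a gene of classical monocytes also chosen after its values were seen, against 0.522 to 10.95 in the other pop4 libraries and 565 to 983 in monocytes. Without that library its log2 difference was -7.57 in place of -5.90, against -5.16 without CD 7 and -5.22 without CD 8, and 15 genes of the list were lower as well.

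Genes known from Ly6C-low, non-classical monocytes were also lower in pop4. Of 16 tested members 13 were lower and 2 higher, with a median log2 difference of -3.20. Cx3cr1, the receptor of fractalkine that holds these cells to vessel walls, was at 9.35, 23.3, 19.6 and 17.5 CPM in pop4, against 145, 286 and 415 CPM in monocytes (log2 difference -4.001, SE 0.33, adjusted p = 1.49e-06). Itgal, the alpha chain of the integrin LFA-1, was at 10.7, 83.6, 18.001 and 16.5 CPM in pop4, against 365, 446 and 548 CPM in monocytes (log2 difference -4.02, SE 0.45, adjusted p = 2.38e-05). The HFD 3 library was again the highest of pop4, and without it the log2 difference of Itgal was -4.87, while in HFD libraries alone Itgal did not pass (adjusted p = 0.0513). Bmx, a tyrosine kinase gene, had 3 reads in pop4 and 46.6 to 220.3 CPM in monocytes, which puts it 1072-fold (95% interval 367 to 5197) higher in monocytes. The 2 members that were higher in pop4, Cd36 and Fabp4, are genes of fatty acid uptake and transport.

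Adhesion molecules and chemokine receptors govern entry into tissue. The adhesion genes were more often lower than higher, and the chemokine receptors moved in both directions. Of 23 tested adhesion genes 12 were lower and 2 higher, beside 11.6% and 9.54% of all tested genes. Their median log2 difference was -1.36. The higher ones were Itgax of the gate and Cd9. Itga4, the alpha chain of the integrin VLA-4, was at 512, 484, 292 and 497 CPM in pop4, against 879, 1263 and 1486 CPM in monocytes (log2 difference -1.503, SE 0.16, adjusted p = 1.64e-05). Emilin2, a matrix glycoprotein gene, was at 84.4, 75.8, 117 and 102 CPM in pop4, against 237, 301 and 312 CPM in monocytes (log2 difference -1.60, SE 0.13, adjusted p = 1.52e-06). Both were still read in every pop4 library. Cd9, a tetraspanin, was higher, at 293, 243, 257 and 368 CPM in pop4 against 92.0, 136 and 179 CPM in monocytes (log2 difference 1.06, SE 0.17, adjusted p = 4.56e-04), but did not pass in HFD libraries alone (adjusted p = 0.0622) or in the fit of all 25 libraries (adjusted p = 0.318). Itgb1, the beta chain shared by many integrins, was at 415 to 575 CPM in pop4 and 364 to 481 CPM in monocytes (adjusted p = 0.26).

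Of 16 tested receptors for chemokines and related chemoattractants, 4 were higher and 6 lower. Ccr1, a receptor of several inflammatory CC chemokines, was at 409, 436, 433 and 453 CPM in pop4, against 104, 218 and 343 CPM in monocytes (log2 difference 1.08, SE 0.20, adjusted p = 0.0015). Every pop4 library lay above every monocyte library in Ccr1, which did not pass in CD libraries alone (adjusted p = 0.0588). Fpr1, the receptor of formylated bacterial peptides, was at 0, 0, 0.652 and 0 CPM in pop4, against 7.4, 40.5 and 90.6 CPM in monocytes (log2 difference -7.86, SE 0.93, adjusted p = 3.68e-05). S1pr5, a receptor of sphingosine 1-phosphate that draws cells out of tissue into blood, was at 0, 0.987, 0 and 0 CPM in pop4, against 2.64, 17.8 and 69.2 CPM in monocytes (log2 difference -7.03, SE 1.28, adjusted p = 0.00125). Fpr1 and S1pr5 were thus each read in a single pop4 library. Without that library pop4 held no read, and the fitted log2 difference, which then depends on the prior count and is no bound, was -10.92 for Fpr1 and -10.40 for S1pr5. S1pr5 did not pass in HFD libraries alone (adjusted p = 0.0812).

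Genes induced by interferon were lower in pop4 almost throughout. Of 25 tested members 23 were lower and 0 higher, with a median log2 difference of -2.84, and 22 of these members lay lower in every pop4 library than in every monocyte library, against 7.54% of all tested genes. The summed level of the list was 881, 932, 935 and 1521 CPM in pop4, against 4793 to 6289.7 CPM in the monocyte libraries. Slfn5, a Schlafen gene, was at 37.5, 42.4, 64.7 and 63.0 CPM in pop4, against 449, 493 and 592 CPM in monocytes (log2 difference -3.30, SE 0.17, adjusted p = 4.08e-08). Xaf1, an interferon-induced promoter of cell death, was at 59.3, 80.3, 58.0 and 68.7 CPM in pop4, against 234, 246 and 275 CPM in monocytes (log2 difference -1.93, SE 0.12, adjusted p = 1.42e-07). Within pop4 both genes differed by less than 2-fold, but Ifit3, an inhibitor of viral translation, and Rsad2, which encodes viperin, varied widely. Ifit3 was at 0.123, 0, 3.26 and 29.4 CPM in pop4, against 90.7, 145 and 167 CPM in monocytes (log2 difference -4.36, SE 1.05, adjusted p = 0.00848). Rsad2, chosen for its promoter after its values were seen, was at 8.61, 0.247, 1.17 and 76.4 CPM in pop4, against 118, 235 and 354 CPM in monocytes (log2 difference -3.57, SE 1.01, adjusted p = 0.0216). In both, the CD 8 library was the highest of pop4, and without it the log2 difference was -6.93 for Ifit3 and -6.47 for Rsad2, while Ifit3 was at -3.76 without HFD 3 and -3.77 without HFD 2. Rsad2 did not pass without HFD 2 (adjusted p = 0.0749), in CD libraries alone (adjusted p = 0.204), without the monocyte libraries titled CD (adjusted p = 0.0505) or without a filter on low counts (adjusted p = 0.0926). Isg15, a ubiquitin-like modifier, did not pass the test, at 0 to 6.42 CPM in pop4 and 0.76 to 37.4 CPM in monocytes (adjusted p = 0.164).

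Promoters of 3 of these genes are shown because they hold the element through which interferon signals reach such genes. The element searched was GAAA, any 2 bases and GAAA again, on either strand, a core of the site bound by interferon regulatory factors. Sequences are RefSeq promoters on GRCm38.p6, running from 250 bases before to 50 after the start of transcription, with matches in capitals. Of 25 list members 18 had an entry in the table, and 10 of those 18 held the element, against 3.99% of 27025 genes with an entry. Ifit3 (chr19:34583279-34583578, plus strand) had 2 matches and Rsad2 (chr12:26456403-26456702, minus strand) and Slfn5 (chr11:82951852-82952151, plus strand) had 1 each. The matches describe the sequence and are no evidence of binding.
Ifit3: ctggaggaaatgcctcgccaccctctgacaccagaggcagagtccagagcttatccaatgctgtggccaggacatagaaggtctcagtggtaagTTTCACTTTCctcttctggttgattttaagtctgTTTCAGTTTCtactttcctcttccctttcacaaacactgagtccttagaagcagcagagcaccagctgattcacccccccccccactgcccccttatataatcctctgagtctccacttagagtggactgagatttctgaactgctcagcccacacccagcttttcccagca
Rsad2: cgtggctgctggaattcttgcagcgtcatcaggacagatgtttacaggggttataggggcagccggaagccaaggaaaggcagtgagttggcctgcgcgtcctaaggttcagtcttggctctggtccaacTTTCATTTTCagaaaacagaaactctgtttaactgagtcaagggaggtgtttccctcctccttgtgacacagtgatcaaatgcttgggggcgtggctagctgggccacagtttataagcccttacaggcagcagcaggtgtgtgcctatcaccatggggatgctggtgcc
Slfn5: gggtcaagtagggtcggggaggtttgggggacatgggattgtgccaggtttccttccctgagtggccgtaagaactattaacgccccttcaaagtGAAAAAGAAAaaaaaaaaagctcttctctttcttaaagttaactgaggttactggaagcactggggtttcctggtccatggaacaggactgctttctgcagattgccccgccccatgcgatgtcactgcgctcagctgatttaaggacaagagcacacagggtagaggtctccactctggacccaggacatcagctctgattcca

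Sensors of microbial products were also more often lower than higher. Of 24 tested genes of Toll-like receptors and inflammasomes 14 were lower and 1 higher, with a median log2 difference of -1.07. Casp4, the caspase that senses lipopolysaccharide inside the cell, was at 55.2, 46.3, 24.8 and 38.4 CPM in pop4, against 209.8, 298 and 317 CPM in monocytes (log2 difference -2.85, SE 0.20, adjusted p = 4.21e-07). Tlr13, a receptor of bacterial ribosomal RNA, was at 30.8, 33.6, 39.0 and 72.8 CPM in pop4, against 299.9, 398 and 581 CPM in monocytes (log2 difference -3.18, SE 0.24, adjusted p = 5.96e-07). Tlr7, a receptor of single-stranded RNA, was at 63.0, 35.5, 18.4 and 83.0 CPM in pop4, against 295, 492 and 577 CPM in monocytes (log2 difference -3.21, SE 0.36, adjusted p = 2.11e-05). The single gene that was higher was Tlr4, the receptor of lipopolysaccharide at the cell surface, at 243, 267, 167 and 306 CPM in pop4 against 104, 137 and 207 CPM in monocytes (log2 difference 0.81, SE 0.20, adjusted p = 0.00998), and its groups overlapped. Tlr4 did not pass without the CD 8 library (log2 difference 0.66, adjusted p = 0.0725) or in CD libraries alone (adjusted p = 0.193).

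**Figure D2:**
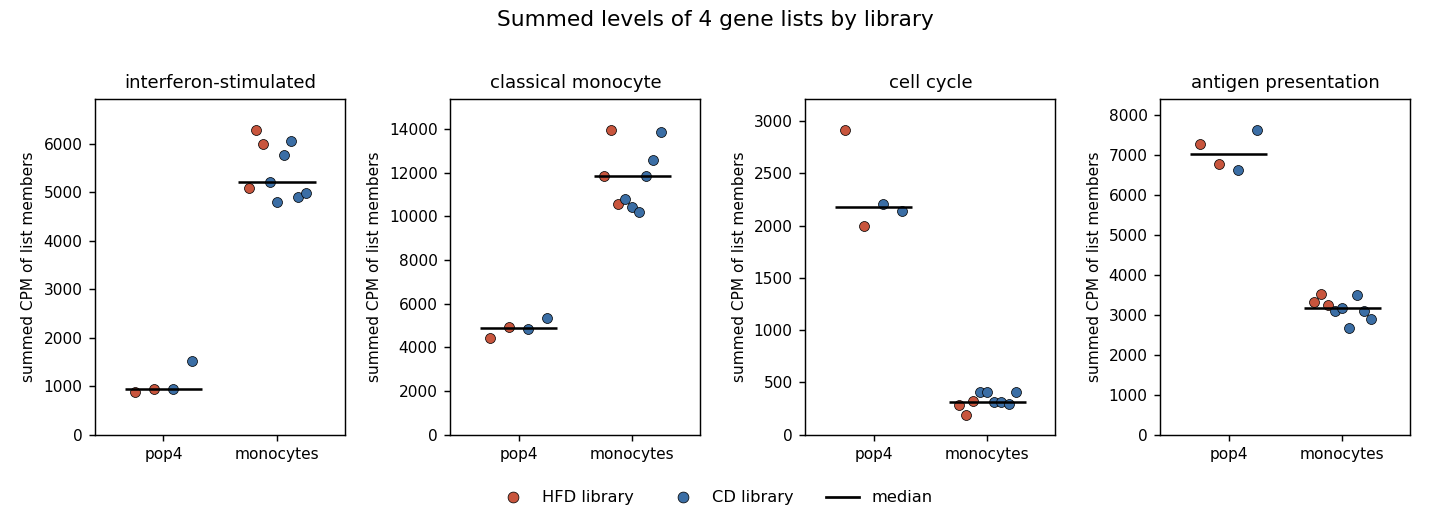
Summed CPM of the members of 4 gene lists by library, with pop4 on the left and monocytes on the right of each panel. Points are libraries, coloured by diet, and lines are medians. Interferon-stimulated and classical monocyte lists lay lower, and cell cycle and antigen presentation lists higher, in every pop4 library than in every monocyte library.

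Genes of tissue macrophages were higher in part. In the macrophage core list 11 of 23 tested genes were higher and 4 lower, with a median log2 difference of 0.48. C1qa, C1qb and C1qc, the chains of complement C1q, which tags dying cells, were among the clearest. C1qa was at 221, 191, 131 and 211 CPM in pop4, against 0, 0.241 and 0.641 CPM in monocytes (log2 difference 9.38, SE 0.47, adjusted p = 2.58e-08), and C1qb at 609.7, 588, 528 and 832 CPM in pop4, against 0.127, 0.877 and 6.28 CPM in monocytes (log2 difference 8.51, SE 0.51, adjusted p = 8.46e-08). Mrc1, the mannose receptor, was at 771, 777, 610.5 and 713 CPM in pop4, against 37.7, 101 and 157 CPM in monocytes (log2 difference 2.83, SE 0.26, adjusted p = 4.19e-06). Fcrls, a scavenger-like receptor of macrophages, was at 638, 418, 411 and 592 CPM in pop4, against 0, 0.374 and 7.17 CPM in monocytes (log2 difference 8.79, SE 0.82, adjusted p = 4.79e-06), or 9.52 on the log2 scale without monocyte library CD 2. Other genes often used as macrophage markers were abundant in blood as well and did not pass the test. Cd68, a lysosomal glycoprotein gene, was at 579.5, 491, 399.7 and 763 CPM in pop4, against 557, 630.3 and 745 CPM in monocytes (log2 difference -0.20, SE 0.14, adjusted p = 0.352). Selenop, a selenium transport protein gene, was at 656, 473, 648 and 1029 CPM in pop4, against 727, 836 and 946 CPM in monocytes (log2 difference -0.24, SE 0.14, adjusted p = 0.266). Without CD 8, the highest of pop4 in both genes, Cd68 and Selenop passed as lower. Their log2 differences were then -0.44 (adjusted p = 0.0248) and -0.47 (adjusted p = 0.00997). Fcgr1, the high-affinity receptor of IgG, was lower, at 50.6, 35.7, 26.1 and 78.5 CPM in pop4 against 198, 244 and 324 CPM in monocytes (log2 difference -2.45, SE 0.27, adjusted p = 2.11e-05).

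Of the receptors and other genes that mark long-lived resident macrophages, 8 of 14 were abundant enough to be tested, of which 4 were higher and 1 lower in pop4. Igf1, counted among growth factors as well, was 1 of the higher members, and F13a1 was the lower one. The members that were tested passed the filter in part through the group where they were high. Folr2, a folate receptor, was at 18.7, 17.9, 51.4 and 106 CPM in pop4, against 0.116, 0.235 and 5.79 CPM in monocytes (log2 difference 6.03, SE 0.95, adjusted p = 3.96e-04). Cd163, the haemoglobin scavenger receptor, was at 161, 159, 106 and 114 CPM in pop4, against 0.172, 11.4 and 53.3 CPM in monocytes (log2 difference 3.14, SE 0.79, adjusted p = 0.011). The other adipose libraries all lay above pop4 in both genes, with 391 to 838 CPM of Folr2 and 286 to 693 CPM of Cd163. Without monocyte library CD 2 the log2 difference of Folr2 was 7.36. Cd163 did not pass in HFD libraries alone (adjusted p = 0.302) or without the monocyte libraries titled CD (adjusted p = 0.0637). F13a1, a coagulation factor made by monocytes and macrophages, was at 319, 409, 284 and 428 CPM in pop4, against 966, 1212 and 1362 CPM in monocytes (log2 difference -1.73, SE 0.14, adjusted p = 1.02e-06), and the other adipose libraries held 997 to 1565 CPM.

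Complement genes moved in both directions. Of 16 tested members 6 were higher, namely the C1q chains, the receptors C5ar1 and C3ar1 and the stabiliser Cfp, and 3 were lower, C3 and Cfb among them. C3, the central component, was at 1.6, 21.7, 19.4 and 16.1 CPM in pop4, against 200.3, 240.0 and 284 CPM in monocytes (log2 difference -4.02, SE 0.48, adjusted p = 3.76e-05). The HFD 2 library was the lowest of pop4 in C3. C5ar1 did not pass without CD 8, HFD 2, HFD 3 or monocyte library HFD 3 (adjusted p = 0.0509 to 0.0954), and left out singly, each of 7 libraries ended the call of Cfb (adjusted p = 0.0513 to 0.0963).

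Antigen presentation was higher in pop4, as the gate on MHC class II implies. Of 15 tested members 8 were higher and 3 lower, with a median log2 difference of 1.503, and the summed level was 6609 to 7628 CPM in pop4, against 2658 to 3528 CPM in monocytes. The genes that were higher belong to the class II pathway. Cd74, the invariant chain, was at 1615, 1316, 1283 and 1499 CPM in pop4, against 376, 517 and 566 CPM in monocytes (log2 difference 1.503, SE 0.10, adjusted p = 1.87e-07), and H2-Ab1, a class II chain, at 1170.3, 1077, 1010.2 and 1047 CPM in pop4, against 99.0, 162 and 211 CPM in monocytes (log2 difference 2.82, SE 0.19, adjusted p = 2.20e-07). The genes that were lower belong to class I presentation and to antigen reduction. B2m, the light chain of class I, was at 597, 702, 684 and 851 CPM in pop4, against 885, 992 and 1418 CPM in monocytes (log2 difference -0.57, SE 0.13, adjusted p = 0.00728). Tap1, the class I peptide transporter, was at 68.9, 65.6, 92.9 and 55.1 CPM in pop4, against 88.1, 108 and 151 CPM in monocytes (log2 difference -0.64, SE 0.20, adjusted p = 0.0357). Ifi30, a thiol reductase of the endosome, was at 230.3, 204, 235 and 209.7 CPM in pop4, against 278, 307 and 384 CPM in monocytes (log2 difference -0.55, SE 0.11, adjusted p = 0.0027). Left out singly, each of 7 libraries ended the call of Tap1 (adjusted p = 0.0507 to 0.115). In CD libraries alone and in HFD libraries alone, none of B2m, Tap1 and Ifi30 passed (adjusted p = 0.0586 to 0.315), nor did Tap1 and Ifi30 in the fit of all 25 libraries (adjusted p = 0.259 and 0.0558). Among costimulatory genes 2 of 9 were higher and 2 lower. Cd86, a ligand of CD28 on T cells, was at 406, 349, 289 and 409 CPM in pop4, against 95.8, 190.4 and 268 CPM in monocytes (log2 difference 0.96, SE 0.22, adjusted p = 0.00548), and did not pass in HFD libraries alone (adjusted p = 0.157).

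CD11c and MHC class II are also carried by dendritic cells, and genes known from them split. Of 16 tested members 5 were higher and 3 lower, and the list summed to 2035 to 2197 CPM in pop4, against 1025 to 1950.3 CPM in monocytes. Mgl2, a lectin of dendritic cells and alternatively activated macrophages, was at 346, 272, 206 and 299.6 CPM in pop4, against 0, 0.352 and 16.7 CPM in monocytes (log2 difference 7.44, SE 1.14, adjusted p = 3.27e-04), and without the highest monocyte library the log2 difference was 9.33. Batf3, a transcription factor of type 1 dendritic cells, was at 184, 180.5, 178 and 140.4 CPM in pop4, against 15.0, 35.5 and 61.4 CPM in monocytes (log2 difference 2.00, SE 0.27, adjusted p = 1.13e-04). Irf8, which those cells also need, was lower, at 26.7, 15.2, 28.8 and 22.7 CPM in pop4 against 118, 191 and 238 CPM in monocytes (log2 difference -2.96, SE 0.26, adjusted p = 2.30e-06). Flt3, the growth factor receptor that defines dendritic cells, was at 8.61, 0.74, 93.0 and 8.73 CPM in pop4, against 18.9, 30.2 and 74.1 CPM in monocytes (log2 difference -0.75, SE 0.77, adjusted p = 0.555), with the CD 7 library the highest. Without CD 7 Flt3 passed as lower in pop4 (log2 difference -2.51, adjusted p = 0.0236). In CD libraries alone its log2 difference was 0.28 (adjusted p = 0.876). Ccr7, which leads dendritic cells to lymph nodes, was at 28.3, 0, 41.0 and 0.134 CPM in pop4, against 0, 0.125 and 19.8 CPM in monocytes (log2 difference 4.21, SE 2.41, adjusted p = 0.256), with reads in 2 of the 4 pop4 libraries above 1 CPM. The share of dendritic cells in the gate was not tested.

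Genes of lipid uptake and handling were more often higher than lower in pop4. Of 25 tested members 11 were higher, Itgax of the gate among them, and 5 lower, with a median log2 difference of 0.70. Cd36, a scavenger receptor for fatty acids and oxidised lipid, was at 1166, 1078, 1041 and 1814 CPM in pop4, against 51.1, 108 and 158 CPM in monocytes (log2 difference 3.54, SE 0.26, adjusted p = 4.83e-07). Lpl, lipoprotein lipase, was at 1346, 1349, 1179.6 and 1331 CPM in pop4, against 122, 248 and 335 CPM in monocytes (log2 difference 2.38, SE 0.18, adjusted p = 8.16e-07). Fabp4, an intracellular fatty acid carrier, was at 191, 218, 230.2 and 259 CPM in pop4, against 5.26, 11.7 and 26.7 CPM in monocytes (log2 difference 4.10, SE 0.35, adjusted p = 2.05e-06). These 3 genes did not overlap between the groups, but adipocytes also express them strongly. Soat1, which stores cholesterol as esters, was lower, at 242, 148, 142 and 282 CPM in pop4 against 389, 487 and 564 CPM in monocytes (log2 difference -1.18, SE 0.18, adjusted p = 2.83e-04). Msr1, a scavenger receptor, was at 32.9, 39.9, 25.7 and 292 CPM in pop4, against 541, 633 and 746 CPM in monocytes (log2 difference -2.81, SE 0.55, adjusted p = 0.0022), with the CD 8 library far above the other pop4 libraries, and without it the log2 difference was -4.35. In CD libraries alone Msr1 did not pass (adjusted p = 0.102). Lgals3, the galectin of lipid-laden macrophages, was at 607 to 776 CPM in pop4 and 576 to 715 CPM in monocytes (adjusted p = 0.419).

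Markers of fat cells were read in pop4 and were almost absent from monocytes, while markers of stroma were read in both. Adipocyte markers summed to 303, 387, 100.1 and 505 CPM in pop4, against 3.27 to 10.8 CPM in monocytes, with 4 of 10 members abundant enough to be tested, in part through pop4, where they were high. Adipoq, the adiponectin gene of fat cells, was at 29.0, 22.7, 6.26 and 77.4 CPM in pop4, against 0, 0 and 0.385 CPM in monocytes (log2 difference 8.41, SE 1.06, adjusted p = 6.37e-05), or 7.02 on the log2 scale without CD 8 and 9.40 without monocyte library HFD 1. Markers of stromal progenitors summed to 293 to 481 CPM in pop4, against 175 to 281 CPM in monocytes, and 2 of 5 tested were higher and 2 lower. Dcn, the decorin gene of stromal cells, was at 80.3, 245, 30.9 and 200.3 CPM in pop4, against 0, 0.249 and 0.877 CPM in monocytes (log2 difference 8.86, SE 0.78, adjusted p = 2.57e-06), or 8.21 on the log2 scale without CD 8. Adipoq, Dcn, Cd36, Lpl and Scd1 were lowest of pop4 in the CD 7 library, which had the lowest adipocyte sum, and Adipoq, Cd36 and Scd1 were highest in CD 8, which had the highest. Fabp4 was lowest in HFD 2 and highest in CD 8. The part of such RNA in the lipid genes was not tested.

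Lysosomal genes moved in both directions. Of 31 tested members 6 were higher and 8 lower, with a median log2 difference of -0.04 against -0.01 over all tested genes. Atp6v0d2, a subunit of the proton pump, was at 122, 66.0, 178 and 474 CPM in pop4, against 0, 0.253 and 8.81 CPM in monocytes (log2 difference 7.99, SE 0.95, adjusted p = 3.94e-05), or 9.76 on the log2 scale without monocyte library CD 2. Ctsk, cathepsin K, which degrades collagen, was at 16.1, 5.06, 151 and 40.8 CPM in pop4, against 0, 0.172 and 0.698 CPM in monocytes (log2 difference 7.56, SE 0.90, adjusted p = 4.11e-05), and spread more than 10-fold within pop4. Its log2 difference was 6.48 without CD 7, and it did not pass in HFD libraries alone (adjusted p = 0.0586). Ctsd, cathepsin D, was at 429, 323, 270.0 and 415 CPM in pop4, against 108, 177 and 210.0 CPM in monocytes (log2 difference 1.08, SE 0.16, adjusted p = 2.85e-04). Psap, which encodes activators of lipid breakdown, was lower, at 346, 271, 334 and 304 CPM in pop4 against 389, 499.9 and 589.5 CPM in monocytes (log2 difference -0.67, SE 0.11, adjusted p = 6.92e-04).

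Other metabolic lists varied in how many members passed the test, beside 9.54% of all tested genes higher and 11.6% lower. Of 21 tested sterol synthesis genes 4 were higher and 0 lower, among them Cyp51, a demethylase of lanosterol, at 177, 105, 169.7 and 87.5 CPM in pop4 against 13.2, 33.6 and 67.2 CPM in monocytes (log2 difference 2.02, SE 0.38, adjusted p = 0.0017). Without HFD 3 and without CD 8 alike, 2 sterol synthesis genes were higher. Scd1, which desaturates fatty acids and is abundant in adipocytes, was at 138, 71.6, 39.8 and 219 CPM in pop4, against 0, 0.253 and 1.15 CPM in monocytes (log2 difference 8.13, SE 0.66, adjusted p = 1.31e-06), and was the single higher gene of 9 tested for fatty acid synthesis. Without CD 8 its log2 difference was 7.17. Of 26 tested genes of oxidative phosphorylation 2 were higher and 0 lower. Of 19 tested genes of glycolysis 2 were higher and 4 lower, or 2 lower without HFD 3. Hif1a, the transcription factor of the response to low oxygen, was at 475, 590.1, 556 and 638 CPM in pop4, against 298, 379.8 and 429 CPM in monocytes (log2 difference 0.63, SE 0.11, adjusted p = 0.00107), and Hk2, hexokinase 2, at 44.4, 22.1, 38.4 and 33.2 CPM in pop4, against 65.0, 108 and 132 CPM in monocytes (log2 difference -1.60, SE 0.26, adjusted p = 4.40e-04). In HFD libraries alone Cyp51, Hif1a and Hk2 did not pass (adjusted p = 0.149, 0.185 and 0.0596), nor did Hif1a in the fit of all 25 libraries (adjusted p = 0.119). In iron and heme handling 4 of 14 were higher and 2 lower. Slc48a1, a heme transporter of the lysosome, was at 375, 312, 311 and 309 CPM in pop4, against 58.5, 129.6 and 179 CPM in monocytes (log2 difference 1.32, SE 0.21, adjusted p = 3.86e-04), and Hp, haptoglobin, at 14.9, 19.0, 6.13 and 2.15 CPM in pop4, against 268, 357 and 477 CPM in monocytes (log2 difference -5.41, SE 0.43, adjusted p = 1.13e-06).

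Genes of alternative activation, the state induced by interleukins 4 and 13, were mostly higher in pop4. Of 17 tested members 10 were higher and 1 lower, with a median log2 difference of 2.24. Retnla, a secreted protein of this state, was at 1153, 1590.3, 1864 and 1565 CPM in pop4, against 3.8, 10.5 and 50.2 CPM in monocytes (log2 difference 6.39, SE 0.56, adjusted p = 2.53e-06). Clec7a, the beta-glucan receptor dectin 1, was the exception, at 510.3, 566, 491 and 890.5 CPM in pop4 against 940.3, 1083 and 1145 CPM in monocytes (log2 difference -0.76, SE 0.13, adjusted p = 9.92e-04), and did not pass in CD libraries alone (adjusted p = 0.0746) or in the fit of all 25 libraries (adjusted p = 0.0526).

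Among chemokine ligands 10 of 17 tested genes were higher and 2 lower. Ccl7, a ligand of CCR2, was at 260.5, 38.9, 214 and 70.4 CPM in pop4, against 0, 0.128 and 0.516 CPM in monocytes (log2 difference 9.35, SE 0.68, adjusted p = 4.51e-07). Cxcl12, the ligand of CXCR4, was at 34.5, 41.2, 49.4 and 76.6 CPM in pop4, against 0, 0.125 and 0.352 CPM in monocytes (log2 difference 8.58, SE 0.72, adjusted p = 1.72e-06), and is also made by stromal cells. Cxcl10, an interferon-induced chemokine, was lower, at 0.123, 46.3, 0 and 32.4 CPM in pop4 against 85.4, 185 and 288 CPM in monocytes (log2 difference -3.42, SE 1.01, adjusted p = 0.0265), and its pop4 libraries ran from 0 to 46.3 CPM. The call of Cxcl10 was lost without a filter on low counts, with receptor counts as covariate, in the fit of all 25 libraries, in CD or HFD libraries alone and without the monocyte libraries titled CD (adjusted p = 0.0501 to 0.213), and its log2 difference was -4.44 without CD 8 and -4.20 without HFD 3. Of 15 tested cytokine genes 2 were higher and 3 lower. Il1rn, the antagonist of the interleukin 1 receptor, was at 678, 489, 484 and 634 CPM in pop4, against 47.1, 134 and 219 CPM in monocytes (log2 difference 2.20, SE 0.26, adjusted p = 3.60e-05). Il1b, the cytokine it opposes, was at 218, 45.2, 149.8 and 98.3 CPM in pop4, against 110.3, 220.4 and 495 CPM in monocytes (log2 difference -0.85, SE 0.43, adjusted p = 0.196).

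Genes of secreted growth factors and of enzymes that remodel matrix were more often higher than lower. Of 13 tested growth factor genes 6 were higher and 0 lower, with a median log2 difference of 2.93. Igf1, insulin-like growth factor 1, was at 331, 375, 368 and 402 CPM in pop4, against 0.172, 0.633 and 14.6 CPM in monocytes (log2 difference 6.33, SE 0.95, adjusted p = 2.72e-04). Vegfa, which drives vessel growth, was at 7.01, 36.1, 73.3 and 7.79 CPM in pop4, against 0, 0.172 and 0.374 CPM in monocytes (log2 difference 7.30, SE 0.81, adjusted p = 2.05e-05), and varied more than 10-fold within pop4. The log2 difference of Igf1 was 7.39 without monocyte library HFD 3 and that of Vegfa 6.20 without CD 7. Of 15 tested proteases and inhibitors 8 were higher and 1 lower, namely Mmp8 of the classical list. Timp2, an inhibitor of metalloproteases, was at 398, 336, 401 and 354 CPM in pop4, against 66.3, 86.5 and 157 CPM in monocytes (log2 difference 1.96, SE 0.21, adjusted p = 1.42e-05).

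**Figure D3:**
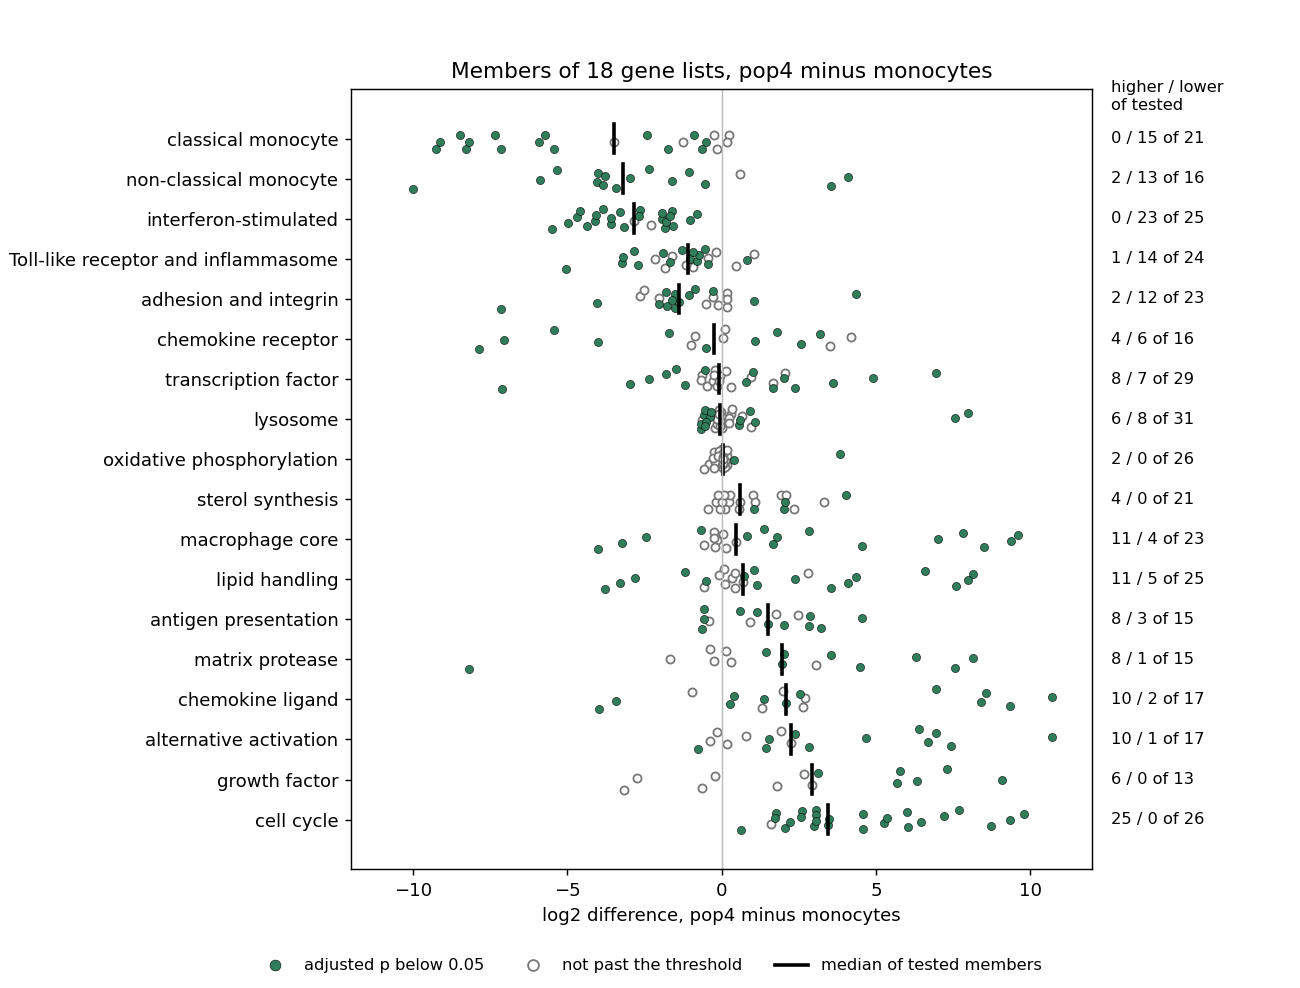
Log2 differences, pop4 minus monocytes, of the tested members of 18 gene lists. Each point is 1 gene, filled where its adjusted p was below 0.05, the bar is the median, and the numbers on the right count members higher and lower of those tested. The cell cycle list lay to the right of 0 in all 26 members, and the interferon-stimulated list to the left of 0 in all 25.

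The cell cycle list had the largest share of higher members of all lists examined. Of 26 tested members 25 were higher and 0 lower, with a median log2 difference of 3.46, and 24 members lay higher in every pop4 library than in every monocyte library, against 7.83% of all tested genes. The list summed to 2917, 1997, 2209.9 and 2138 CPM in pop4, against 192 to 409.9 CPM in monocytes. Birc5, survivin, which acts when chromosomes separate, was at 183, 125, 164 and 173 CPM in pop4, against 0, 0.172 and 0.623 CPM in monocytes (log2 difference 9.35, SE 0.61, adjusted p = 1.65e-07). Cdk1, the kinase that starts mitosis, was at 169, 100.3, 139.6 and 129 CPM in pop4, against 0, 0.128 and 0.877 CPM in monocytes (log2 difference 8.72, SE 0.60, adjusted p = 2.35e-07). Ccna2, a cyclin of S and G2 phase, was at 222, 157, 224 and 306 CPM in pop4, against 14.3, 28.7 and 58.6 CPM in monocytes (log2 difference 3.07, SE 0.23, adjusted p = 6.43e-07). Rrm1, a subunit of ribonucleotide reductase, was the member that did not pass, at 50.2 to 144 CPM in pop4 and 4.61 to 76.3 CPM in monocytes (adjusted p = 0.0541). It passed in the DESeq2 test (adjusted p = 0.0123) and in edgeR with DESeq2 or upper-quartile size factors (adjusted p = 0.0488 and 0.045). The HFD 2 library held the highest sum of the list. Against the other adipose populations, whose sums were 360.2 to 1838 CPM, 17 of 26 members were higher in pop4, beside 11.4% of 16961 genes tested. With counts of olfactory and vomeronasal receptors as a covariate 1 member was higher. Those counts did not overlap between pop4 and the other adipose libraries, so the lost calls cannot tell background reads from population. The contrast pools pop1 to pop3, and pop3 alone was not tested. Birc5 was at 157, 64.8, 1.78 and 89.2 CPM in pop3 libraries HFD 2, HFD 3, CD 7 and CD 8. It was at 0.963 to 5.55 CPM in pop1 and 1.22 to 44.1 CPM in pop2. Some cell cycle RNA was thus read in pop3 as well, and members of the list differed in this. In bulk libraries, a share of dividing cells and the level in each cell cannot be told apart.

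Promoters of 2 mitotic genes of this list are shown because they carry, close to the start, motifs known from genes that are switched on in G2 phase and mitosis. The motifs searched were CCAAT, bound by the factor NF-Y, and TTTGAA, the core of the cell cycle homology region, both on either strand and without overlap between them. Of 21 members with an entry 18 held CCAAT, against 41.1% of 27025 genes, and 9 held TTTGAA, against 20.2%. Cdk1 (chr10:69352863-69353162, minus strand) and Ccnb2 (chr9:70421505-70421804, minus strand) each had 3 matches of CCAAT and 2 of TTTGAA, shown in capitals. Ccnb2, a cyclin of mitosis chosen for its promoter after its values were seen, was at 187, 113, 149 and 125 CPM in pop4, against 0, 2.58 and 60.4 CPM in monocytes (log2 difference 5.27, SE 1.36, adjusted p = 0.0131). Its log2 difference was 6.18 and 6.21 without pop4 CD 7 or CD 8 and 4.58 and 4.55 without monocyte libraries HFD 1 or HFD 3, and it did not pass in CD libraries alone (adjusted p = 0.161). Short motifs occur often by their length alone, and the matches are no evidence of binding.
Cdk1: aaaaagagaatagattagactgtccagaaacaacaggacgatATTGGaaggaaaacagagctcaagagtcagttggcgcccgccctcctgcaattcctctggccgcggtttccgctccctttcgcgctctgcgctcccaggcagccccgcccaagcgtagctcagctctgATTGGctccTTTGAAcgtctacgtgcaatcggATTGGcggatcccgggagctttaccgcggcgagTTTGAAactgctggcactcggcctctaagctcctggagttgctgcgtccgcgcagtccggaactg
Ccnb2: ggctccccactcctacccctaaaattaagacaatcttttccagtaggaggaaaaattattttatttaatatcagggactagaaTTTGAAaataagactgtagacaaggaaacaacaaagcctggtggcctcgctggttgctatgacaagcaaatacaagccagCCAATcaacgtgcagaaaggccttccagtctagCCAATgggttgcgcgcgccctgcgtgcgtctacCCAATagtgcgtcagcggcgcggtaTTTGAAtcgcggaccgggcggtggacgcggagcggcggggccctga

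Transcription factors changed in both directions, with 8 of 29 tested members higher and 7 lower. Id2, an inhibitor of E proteins, was at 607, 629, 599.5 and 671 CPM in pop4, against 319, 361 and 408 CPM in monocytes (log2 difference 0.78, SE 0.08, adjusted p = 7.51e-06). Bhlhe40, a repressor of the basic helix-loop-helix family, was at 174, 174, 251 and 226 CPM in pop4, against 3.96, 12.7 and 45.8 CPM in monocytes (log2 difference 3.62, SE 0.55, adjusted p = 3.00e-04). Egr2, a zinc finger factor induced by interleukin 4, was at 87.1, 101, 84.3 and 74.3 CPM in pop4, against 0, 0.253 and 6.85 CPM in monocytes (log2 difference 6.93, SE 1.16, adjusted p = 6.34e-04), or 7.63 and 7.67 on the log2 scale without CD 7 or CD 8. Id2 did not pass in the fit of all 25 libraries (adjusted p = 0.358), nor Bhlhe40 in HFD libraries alone (adjusted p = 0.0933). Cebpd, a factor of myeloid cells and of inflammation, was lower, at 78.4, 58.4, 70.7 and 60.1 CPM in pop4 against 187, 241 and 258 CPM in monocytes (log2 difference -1.78, SE 0.14, adjusted p = 6.87e-07), as was Klf13, at 72.2, 93.0, 68.6 and 77.0 CPM in pop4 against 169.6, 222 and 244 CPM in monocytes (log2 difference -1.47, SE 0.14, adjusted p = 3.73e-06). Irf5, a factor of inflammatory macrophages, was at 199 to 243 CPM in pop4 and 221 to 339 CPM in monocytes (adjusted p = 0.117). Immediate early and heat shock genes, which respond within minutes to handling, moved in both directions, with 5 of 22 tested members higher and 3 lower. Nr4a1, an orphan nuclear receptor on which non-classical monocytes depend, was at 34.2, 14.3, 33.4 and 18.7 CPM in pop4, against 69.9, 134 and 194 CPM in monocytes (log2 difference -2.35, SE 0.33, adjusted p = 1.49e-04), and did not pass in the fit of all 25 libraries (adjusted p = 0.0694). Transcription was inhibited during digestion of adipose tissue and the labels record no such step for blood, and the part of this in these genes was not tested.

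Markers of lymphocytes were read in both populations. T cell markers summed to 317, 428, 251 and 420 CPM in pop4, against 3.86 to 356 CPM in monocytes. NK cell markers summed to 306, 271, 310 and 424 CPM in pop4, against 111 to 508 CPM in monocytes. Much of these pop4 sums came from 1 gene each, Cd2 and Klrk1. Of 8 tested T cell markers 1 was higher and 1 lower, with a median log2 difference of -2.05. Of 4 tested NK cell markers 0 were higher and 1 lower, with a median of 0.65. Of the T cell markers, Cd2, an adhesion receptor, was at 190.0, 203, 157 and 257 CPM in pop4, against 0, 12.2 and 46.3 CPM in monocytes (log2 difference 3.68, SE 0.71, adjusted p = 0.00186), whereas Cd3g, a chain of the T cell receptor complex, was at 30.8, 2.1, 0 and 19.5 CPM in pop4, against 0, 24.9 and 109 CPM in monocytes (adjusted p = 0.548). Klrk1, which encodes NKG2D, was at 244, 203, 192 and 311 CPM in pop4, against 49.3, 133 and 218 CPM in monocytes (log2 difference 0.81, SE 0.29, adjusted p = 0.06), whereas Nkg7, a granule gene of NK cells, was at 0, 0, 0.261 and 1.34 CPM in pop4, against 0, 73.6 and 132 CPM in monocytes (log2 difference -7.37, SE 2.19, adjusted p = 0.028). Cd3g and Nkg7 were thus near 0 in some or all pop4 libraries, while Cd2 and Klrk1 were not. Nkg7 did not pass without CD 7, HFD 2 or HFD 3 (adjusted p = 0.0762 each), without a filter on low counts or in CD or HFD libraries alone (adjusted p = 0.10 to 0.183), and its log2 difference was -9.32 without CD 8. Neutrophil markers summed to 6.79 to 27.8 CPM in pop4, against 102 to 363 CPM in monocytes, and platelet markers to 165 to 278 CPM in pop4, against 167 to 509.7 CPM in monocytes. Of 5 tested platelet genes 2 were lower and 1 higher in pop4. Their median log2 difference was -3.98, against -0.01 over all tested genes. The higher one was Pf4, a chemokine that macrophages also make. Pf4 was at 184, 164, 216 and 269 CPM in pop4, against 35.1, 87.3 and 130.1 CPM in monocytes (log2 difference 1.37, SE 0.32, adjusted p = 0.00753). In HFD libraries alone Cd2 and Pf4 did not pass (adjusted p = 0.0589 and 0.0651). B cell markers summed to 4.83 to 117 CPM in pop4, against 15.2 to 117 CPM in monocytes. The part of these cells in the gene lists was not tested.

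Few genes passed a test of whether the diet difference, HFD minus CD, was another in pop4 than in monocytes. A fit with separate diet effects called 6 of 11769 genes (0.051%), 658 genes had an unadjusted p below 0.05, and each diet had 2 pop4 libraries. The values of 5 of these genes follow. Irf7, the master regulator of the interferon response, was at 0.246 and 0.247 CPM in HFD pop4 and 5.74 and 17.1 CPM in CD pop4, against 248 to 305 CPM in HFD and 161 to 294 CPM in CD monocytes, a difference of diet effects of -5.82 (SE 0.72, adjusted p = 0.00957). Ifit3 was at 0.123 and 0 CPM in HFD pop4 and 3.26 and 29.4 CPM in CD pop4, against 145 to 167 CPM in HFD and 90.7 to 159 CPM in CD monocytes, a difference of -7.99 (SE 1.24, adjusted p = 0.0495). Mtus1, a gene of a microtubule-associated protein, was at 1.23 and 0.247 CPM in HFD pop4 and 10.3 and 16.5 CPM in CD pop4, against 204 to 364 CPM in monocytes, a difference of -3.84 (SE 0.50, adjusted p = 0.013). In these 3 genes HFD pop4 libraries lay below CD pop4 libraries. In the other 2 they lay above. Gm12250, a gene of the interferon-inducible GTPase family, was at 9.23 and 6.29 CPM in HFD pop4 and 0.522 and 0.134 CPM in CD pop4, against 114 to 211 CPM in monocytes, a difference of 4.69 (SE 0.55, adjusted p = 0.00957). Cfap126, a gene of cilia, was at 5.78 and 11.4 CPM in HFD pop4 and 0 and 0.134 CPM in CD pop4, against 32.3 to 63.6 CPM in monocytes, a difference of 6.41 (SE 0.93, adjusted p = 0.0277). In all 5 genes every pop4 library of either diet lay below every monocyte library. In each of them at least 1 library of the lower pop4 diet group also lay below the limit of detection (0.369 to 0.403 CPM). The fitted sizes thus rest on few reads, depend in part on the prior count and are uncertain. The count depended on method and libraries. DESeq2 called 73 genes, and edgeR called 0 without the monocyte libraries titled CD. Leaving out 1 pop4 library, so that the lone library of its diet was assumed to vary like the other groups, gave 79 without CD 8, 17 without CD 7, 15 without HFD 3 and 11 without HFD 2. Left out singly, each of 11 of the 13 libraries ended the edgeR call of Ifit3 (adjusted p = 0.079 to 0.217), each of 8 that of Cfap126 (adjusted p = 0.0722 to 0.081), and each HFD pop4 library that of Irf7 (adjusted p = 0.0545 without HFD 2 and 0.054 without HFD 3).

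**Figure D4:**
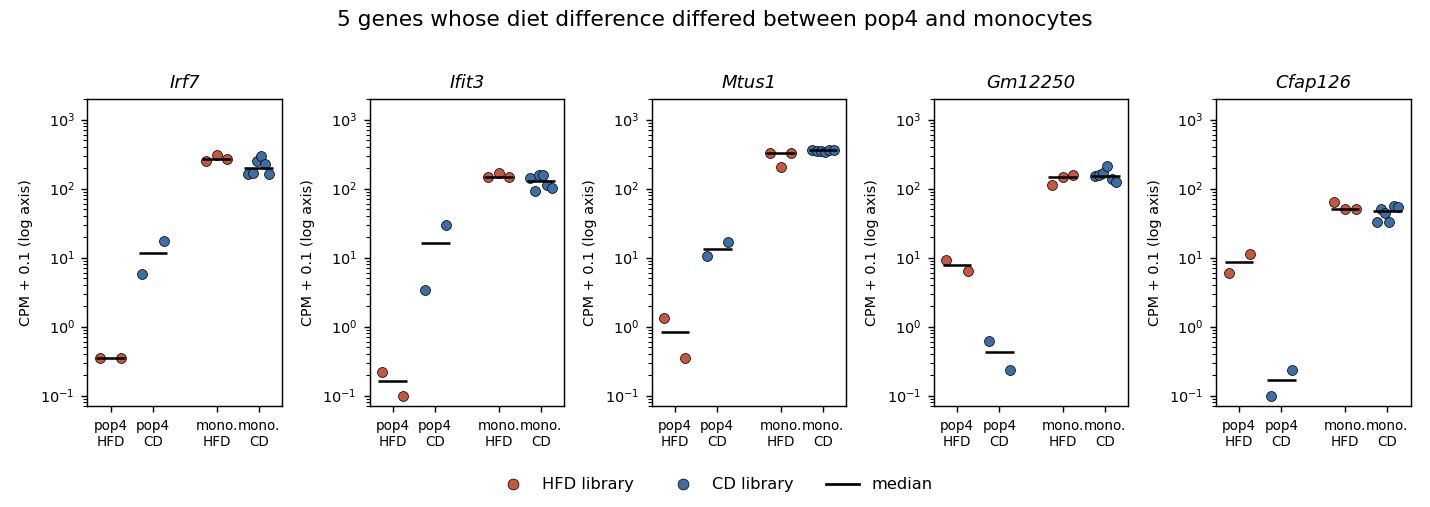
CPM plus 0.1 (log axis) of 5 genes whose diet difference differed, in HFD and CD pop4 libraries and in HFD and CD monocyte libraries. Points are libraries and lines medians. Irf7, Ifit3 and Mtus1 lay lower, and Gm12250 and Cfap126 higher, in both HFD than in both CD pop4 libraries, and all 5 lay below the monocytes.

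Pop4 was then set against the mean of the other 3 adipose populations, to show which of the genes above marked pop4 within the tissue. Of 16961 genes tested in 1 fit of all 25 libraries, 1940 (11.4%) were higher and 2146 (12.7%) lower in pop4. Background reads also differed, as given above, and with receptor counts as a covariate 97 genes were higher and 133 lower. Receptor counts did not overlap between pop4 (79.5 to 190 CPM) and the other adipose libraries (194 to 685 CPM). The covariate thus takes up part of the contrast itself, and a call lost with it cannot tell background reads from population. Of the 12 genes named below with a call, 8 did not pass with that covariate, namely Aldh1a2, C1qa, Ccr2, Dab2, Il1rn, Klrb1a, Klri1 and Plaur. Without HFD 2 the counts were 1044 higher and 687 lower, without CD 8 they were 1058 and 736, and without HFD 3 1134 genes were lower. Some genes that were abundant in both pop4 and monocytes were lower in the rest of the tissue. Fn1, which like Plaur and Ccr2 was picked here after its values were seen, was at 983 to 1096 CPM in pop4, against 13.8 to 679.9 CPM in the other adipose libraries (log2 difference 2.34, SE 0.21, adjusted p = 1.20e-07). Ccr2 was at 1277 to 1769 CPM in pop4, against 2.48 to 1410.1 CPM in the other adipose libraries (log2 difference 2.97, SE 0.37, adjusted p = 7.00e-06), and Plaur, the urokinase receptor, at 206 to 298 CPM in pop4, against 0.872 to 124 CPM in the other adipose libraries (log2 difference 3.51, SE 0.38, adjusted p = 1.32e-06). Monocytes held 207 to 378 CPM of Plaur. Fn1 and Plaur did not overlap with the other adipose libraries, whereas Ccr2 did.

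Genes that were higher in pop4 than in monocytes differed in how they stood within adipose tissue. Gfra2 was at 151 to 181 CPM in pop4, against 119 to 268 CPM in the other adipose libraries (log2 difference -0.26, SE 0.34, adjusted p = 0.601). Aldh1a2 was at 267 to 316 CPM in pop4, against 8.16 to 149 CPM in the other adipose libraries (log2 difference 2.59, SE 0.44, adjusted p = 2.90e-04), and Rgs1 at 162 to 360.2 CPM in pop4, against 0.162 to 177 CPM in the other adipose libraries (log2 difference 5.66, SE 0.50, adjusted p = 2.03e-07). Il1rn was at 484 to 678 CPM in pop4, against 1.51 to 175 CPM in the other adipose libraries (log2 difference 4.02, SE 0.56, adjusted p = 3.10e-05). Aldh1a2 and Il1rn thus lay above all other adipose libraries, while C1qa and Dab2 lay below them. C1qa was at 131 to 221 CPM in pop4, against 397 to 716 CPM in the other adipose libraries (log2 difference -1.54, SE 0.23, adjusted p = 8.32e-05), and Dab2 at 550.0 to 659.8 CPM in pop4, against 889 to 1728 CPM in the other adipose libraries (log2 difference -1.11, SE 0.21, adjusted p = 7.66e-04). In the macrophage core list 16 of 24 members were lower and 3 higher in pop4 than in the other adipose populations. In the resident receptor list 13 of 14 were lower and 0 higher. Of all genes tested in that contrast 12.7% were lower and 11.4% higher. With receptor counts as a covariate the macrophage core list had 8 lower and 0 higher, and the resident receptor list 10 lower and 0 higher.

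By the same rule of the widest gap, 5 genes in each direction stood out between pop4 and all other adipose libraries. Klrb1a was at 89.8 to 146 CPM in pop4, against 0 to 2.73 CPM in the other adipose libraries (log2 difference 8.26, SE 0.88, adjusted p = 2.15e-06), and Klri1, a lectin-like receptor, at 39.4 to 81.8 CPM in pop4, against 0 to 0.566 CPM in the other adipose libraries (log2 difference 10.08, SE 1.39, adjusted p = 5.86e-05). Upb1, an enzyme of pyrimidine breakdown, was at 206 to 245 CPM in pop4, against 0.325 to 9.7 CPM in the other adipose libraries (log2 difference 7.05, SE 0.65, adjusted p = 1.77e-07). Gbp8, a guanylate-binding protein gene, and Shcbp1, a gene of dividing cells, complete the 5 higher genes, at 45.9 to 84.1 and 74.8 to 100.2 CPM in pop4, against 0 to 0.943 and 0 to 5.85 CPM in the other adipose libraries. Among the lower genes, Gas6, the ligand of the receptors AXL and MERTK, was at 0.37 to 8.09 CPM in pop4, against 185 to 632 CPM in the other adipose libraries (log2 difference -7.44, SE 0.32, adjusted p = 2.49e-12). Cd209f and Cd209g, closely related lectin genes whose reads could be split between them, were at 0 to 8.35 and 0 to 2.61 CPM in pop4, against 233 to 654 and 151 to 472 CPM in the other adipose libraries. Adam33, a metalloprotease gene, and Btnl2, a butyrophilin-like gene, were at 0.123 to 0.672 and 0 to 0.391 CPM in pop4, against 42.7 to 184 and 29.8 to 266 CPM in the other adipose libraries. Monocytes held 0.233 to 0.752 CPM of Gas6 and 0 to 1.03 CPM of Cd209f, levels as low as those of most pop4 libraries or lower.

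**Figure D5:**
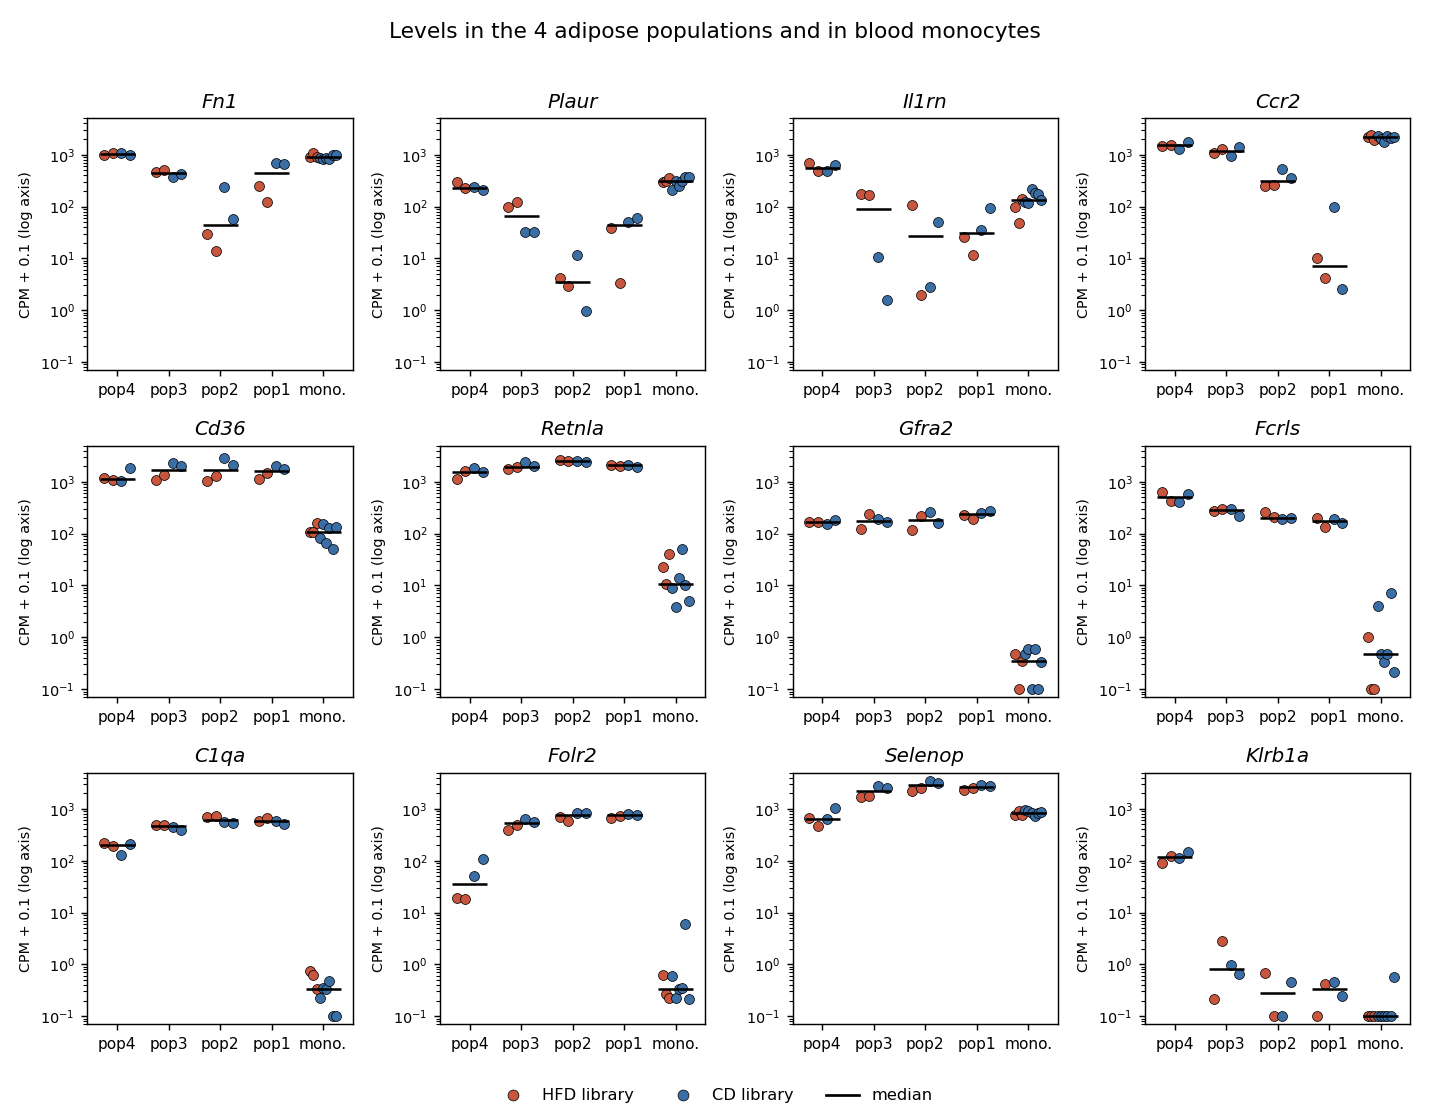
CPM plus 0.1 (log axis) of 12 genes in the 4 adipose populations, with pop4 first, and in monocytes. Points are libraries, coloured by diet, and lines are medians. Fn1, Plaur and Ccr2 were high in pop4 and monocytes, Cd36, Retnla, Gfra2 and Fcrls in all adipose populations, C1qa and Folr2 higher in pop1 to pop3 than in pop4, and Klrb1a was above 3 CPM in pop4 alone.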

How the data were processed

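Read counts per RefSeq gene model were used as deposited by the authors, in 1 table of 25 libraries with the length and genomic copy number of each model. The submitters' processing notes name STAR 2.5.3a, HOMER and mm10. Duplicate removal and the use of strand are not given in the sources used here, so overlapping and antisense genes cannot be told apart with certainty.

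Counts were scaled with TMM factors over all 25 libraries, genes filtered with edgeR's filterByExpr by population, and differences tested with edgeR 4.0.16 (limma 3.58.1, R 4.3.3) by the quasi-likelihood test at an adjusted p below 0.05 (Benjamini-Hochberg). Pop4 and monocytes were fitted with diet as covariate over 13 libraries, the diet difference with an interaction term, and the contrast with other adipose populations over all 25. CPM used effective library sizes, and likeness used log2(CPM + 1). SE is the absolute log2 difference divided by the square root of the F statistic. Intervals of ratios with 1 to 3 reads cover counting error only, and reads without molecular identifiers are not independent molecules. The procedure was tested on simulated counts with known changes.

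Groups came from the titles and sort labels, whose replicate numbers were not taken as pairs. Deviations of same-numbered libraries correlated weakly, in pop4 against monocytes and against the other adipose populations. Against the latter most values were above 0, with r at most 0.060. With 2 pop4 libraries per diet, deviations from their mean mirror each other, so this check cannot exclude libraries from the same animal. Alternatives were size factors, filters, DESeq2 1.42.0, receptor counts as covariate, a replicate block, diets apart and libraries left out in turn. Members and gene lists were chosen with earlier results of these data known. Genes named are the 12 with the widest gap in each direction, the 3 members per list and direction with the smallest adjusted p, up to 2 abundant members per list that did not pass, gate genes and markers of other cells, up to 5 genes per direction for diet and for other adipose, and 4 markers, with only part of these printed, and some are not reported here. The gap was taken on CPM + 1.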

Additional observations from a re-analysis of the deposited data

Results flagged for a closer look

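In 308 groups of values checked (genes named in the text and list sums, in pop4 and in monocytes), 39 had 1 library far from the others by Dixon's test, 21 in pop4 and 18 in monocytes. For normally distributed values chance flags about 1 in 20 groups. CPM values, above all those from few reads, need not be normal, so the rate expected here is not known. The values below are CPM of the library that stood apart.

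Among pop4 libraries, CD 8 was high in Cd36 (1814), Msr1 (292), C5ar1 (271), Rsad2 (76.4), Ifit3 (29.4) and Timd4 (10.6) and low in Batf3 (140.4). It also had the highest summed level of the interferon-stimulated list (1521) and of the non-classical monocyte list (3051, of which 1814 was Cd36). HFD 3 was high in Itgal (83.6), Plac8 (71.3), Ly6c2 (12.5) and S1pr5 (0.987). CD 7 was high in Flt3 (93.0), Cd209g (2.61) and Fpr1 (0.652) and low in Lpl (1179.6) and Itga4 (292). HFD 2 was high in Slc48a1 (375), Cd177 (1.72) and Bmx (0.369).

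Among monocyte libraries, HFD 1 was high in Bmx (220.3), Cd163 (53.3) and Cd209f (1.03). HFD 2 was high in Ly6c2 (673) and low in Mtus1 (204), and HFD 3 was high in S1pr5 (69.2) and Gbp8 (15.5). CD 2 was high in Atp6v0d2 (8.81), Btnl2 (6.29) and Folr2 (5.79). CD 3 was high in Ccnb2 (60.4), C1qb (6.28) and Klrb1a (0.465) and in the summed immediate early and heat shock list (2811). CD-CD 6 was high in Shcbp1 (3.38), CD-CD 7 in Mgl2 (16.7) and Ccl17 (0.253), and CD-CD 8 in Aldh1a2 (0.587).

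The diet difference, HFD minus CD, differed between pop4 and monocytes by an interaction term in 6 genes (edgeR's quasi-likelihood test, Benjamini-Hochberg adjustment), of which 5 are given. The log2 difference of diet differences was 4.69 for Gm12250, 6.41 for Cfap126, -5.82 for Irf7, -3.84 for Mtus1 and -7.99 for Ifit3, with adjusted p = 0.00957, 0.0277, 0.00957, 0.013 and 0.0495 in that order.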

How the results depend on the processing

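Of 111 named genes that differed between pop4 and monocytes, none changed direction under any alternative run for that comparison. All kept the call with DESeq2 or upper-quartile size factors and without a diet term, as did all 100 to which DESeq2 gave an adjusted p. The call was lost by 14 in CD libraries only, by 21 in HFD libraries only, by 9 in a fit of all 25 libraries, by 12 with the title number as a replicate block, by 5 without the monocyte libraries titled CD, by 4 without a filter on low counts, by 2 with receptor counts as covariate, and by 6 when libraries were left out in turn. Some named genes that did not pass the main test against monocytes passed under some alternative. They were Cd68, Flt3, Fn1, Gda, Il1b, Isg15, Klrk1, Plaur, Rrm1 and Selenop. Of values that did not pass the main test, Flt3 was 0.28 in CD libraries only, Gda -0.052 in HFD libraries only, and Gfra2 0.71 against other adipose with receptor counts as covariate. The cause was not tested.

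Genes higher and lower in pop4 than in monocytes numbered 572 and 723 in CD libraries only and 414 and 539 in HFD libraries only, where fewer libraries entered, and 899 were lower in the fit of all 25. Leaving out 1 library gave 911 to 1104 higher and 1110 to 1329 lower. Against other adipose, 97 were higher and 133 lower with receptor counts as covariate, 582 and 313 in CD groups only, 1237 and 806 in HFD groups only, 1044 to 2172 and 687 to 2101 when 1 library was left out, and 3846 lower with DESeq2. The diet difference gave 73 calls with DESeq2, 0 without the monocyte libraries titled CD, and 4 to 79 when 1 library was left out. With receptor counts as covariate, chosen after seeing the data for these lists, 1 cell cycle gene was higher than in other adipose, and of macrophage core genes 0 were higher and 8 lower. Receptor counts did not overlap between pop4 and other adipose, so calls lost with this covariate cannot tell background reads from population. Sterol synthesis had 2 higher genes without pop4 CD 8 or HFD 3, chosen after seeing the data, and glycolysis 2 lower without HFD 3. The likeness of pop4 to monocytes was 0.763 over 9663 genes at 10 CPM or more and 0.902 as Spearman's rho.

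Titles share numbers, but deviations from the group means correlated weakly between libraries of the same number. The r was -0.05 to 0.02 for pop4 against monocytes. It was -0.0026 to 0.060 for pop4 against each other adipose population, mostly above 0. The numbers were not taken as pairs. With 2 pop4 libraries per diet this check is weak and cannot exclude shared animals. With the title number as a replicate block, 626 genes were higher and 659 lower than in monocytes, 943 higher and 1052 lower than in other adipose (16 adipose libraries), and 0 differed by diet. With 2 pop4 libraries per diet and 200 cells per library, differences of low genes and by diet are the least certain.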
